A study of Mus musculus with 6 samples.

Results

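Cultured spermatogonial stem cells of the mouse renew themselves and feed sperm production in the testis. Their small RNAs were compared between an untreated Hen1 knockout library and an untreated wild type library. These are 2 of the 6 libraries of the series, chosen by their labels, with 1 library in each group. Per the labels the stem cells came from a 15-day-old F1 male of C57BL/6 and DBA2 that carried an actin-EGFP transgene, and the strain is given as C57BL/6. They were grown on mouse embryonic fibroblast feeders, so feeder RNA can be in both libraries. The knockout was made by transient transfection of Cas9 with guide RNAs, and a picked single colony was checked by Sanger sequencing, so the knockout stands for the colony picked as well as for the genotype. Neither library had been treated with NaIO4, and spike-ins had been added to both. Reads of 18 to 35 nt numbered 7322408 for wild type and 11702714 for the knockout. The other 4 libraries, wild type and knockout with NaIO4, a Mili knockout and RNA immunoprecipitated with the Piwi protein MILI, held 2604390 to 25240941 such reads and serve below only as background or as an independent reference for piRNA ends. With 1 library per group there is no replicate check and no test: ratios carry 95% intervals from read counts, which cover counting error only, since PCR copies of a molecule cannot be recognised without molecular identifiers.

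Hen1 (gene Henmt1) adds a methyl group to the 2′ oxygen of the last base of piRNAs, the small RNAs that Piwi proteins carry in the germ line and that silence transposons. A piRNA precursor is cut to give the 5′ end, which is mostly a T (U in the RNA), loaded into a Piwi protein such as MILI, trimmed at the 3′ end and then methylated. An unmethylated 3′ end is open to trimming and to the addition of untemplated bases, called tails, while most animal microRNAs are never methylated by Hen1. Henmt1 itself gave 17 piRNA-like reads for wild type and 78 for the knockout. Small RNA reads from a gene do not measure its transcript or its edited site, so they do not check the genotype.

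The sequences below show what the comparison is about. They are forms from the most abundant 5′ ends of reads that match 1 gene, on GRCm38 with GENCODE M21 gene models. They are the 5 ends with most reads in both libraries together, in that order, and Wasf2, the eighth, which was added after its values were seen because its long form is short enough to print. Capitals mark the bases at the 3′ end that the wild type form holds beyond the commonest knockout form, or, in a tailed form, the base that the transcript does not hold.

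Rmrp, both libraries, chr4:43493030-43493059, minus strand: agctcgctctgaaggcctgtttcctaggct
Gm38246, both libraries, chr3:51103881-51103909, plus strand: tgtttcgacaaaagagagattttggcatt
Gm38246, tailed: tgtttcgacaaaagagagattttggcatA
Gm49116, wild type form, chr15:14480801-14480827, plus strand: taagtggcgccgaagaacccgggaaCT
Gm49116, knockout form: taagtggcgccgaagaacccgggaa
Gm49116, tailed: taagtggcgccgaagaacccgggaaA
Scd2, knockout form, chr19:44304861-44304888, plus strand: tggcaccttcctcactcagagatacaac
Scd2, tailed: tggcaccttcctcactcagagatacaacT
Fth1, knockout form, chr19:9984264-9984290, plus strand: tgccgagaaactgatgaagctgcagaa
Fth1, tailed: tgccgagaaactgatgaagctgcagaaT
Wasf2, wild type form, chr4:133199659-133199687, plus strand: taacctgaagattccatgtaactcttaTG
Wasf2, knockout form: taacctgaagattccatgtaactctta
Wasf2, tailed: taacctgaagattccatgtaactcttatA

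At the Scd2 5′ end, in the 3′ UTR of the gene for stearoyl-CoA desaturase 2, wild type reads ended almost all at one place and knockout reads did not. Of 3125 wild type reads, 86.2% reached base 31 from the 5′ end and 0.640% ended at base 28. Of 1290 knockout reads, 20.0% reached base 31, 33.1% ended at base 28, 11.6% at base 30, 7.44% at base 27 and 8.29% at base 22. The mean end moved from 30.7 to 28.0 nt. The tailed 29-nt form shown above had 0 wild type and 69 knockout reads, which is 5.35% (95% exact interval 4.19 to 6.72) of the knockout reads at this end, while 0 of 3125 allows up to 0.118% by the exact interval.

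At the Fth1 5′ end, in the coding sequence of the ferritin heavy chain, 36.1% of 765 wild type reads ended at base 32 and 23.5% at base 28. Of 2827 knockout reads 0.495% ended at base 32, while 25.8% ended at base 27, 23.1% at base 25 and 19.2% at base 26. Knockout reads were thus spread over neighbouring shorter ends in place of the wild type peak at base 32. The tailed form had 3 wild type reads and 153 knockout reads, 5.41% (4.61 to 6.31) of those at this end.

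At the Wasf2 5′ end, in the 3′ UTR of a gene for an actin regulator of the WAVE family, the 29-nt form held 53.3% (50.5 to 56.1) of 1270 wild type reads and 19.04% (17.1 to 21.1) of 1549 knockout reads. The 27-nt form went the other way, from 12.5% (10.7 to 14.5) to 33.1% (30.8 to 35.5). The tailed form had 0 wild type and 27 knockout reads.

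The other abundant 5′ ends moved by different amounts. At Gm38246, a lincRNA, base 29 held 83.3% of 819 wild type reads and 86.4% of 5620 knockout reads, and the mean end differed by -0.21 nt. At Gm49116, another non-coding gene, the share ending at base 27 was 33.2% for wild type and 10.2% for the knockout, and at base 25 it was 15.2% and 35.1%, with a difference in the mean end of -1.80 nt. Tailed reads were already frequent at this Gm49116 end in wild type, 25.1% against 23.7% in the knockout, yet the A-tailed form shown had 0 wild type and 190 knockout reads. Rmrp, the RNA subunit of the nuclease RNase MRP and not a piRNA precursor, ended at the same base in 77.9% of 6666 wild type reads and 72.4% of 4986 knockout reads. Its mean end differed by -0.40 nt, reads ending at base 25 went from 1.67% to 8.12%, and tailed reads from 0.765% to 2.85%.

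**Figure D1:**
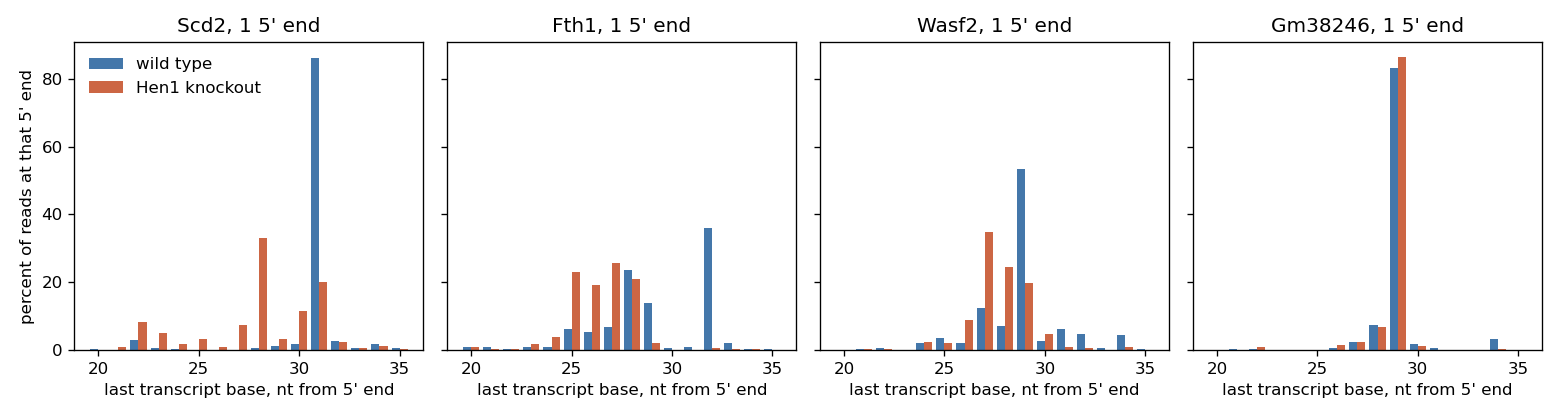
Share of reads (percent, vertical axis) by the last base that matches the transcript, counted from the 5′ end (nt, horizontal axis), at 1 5′ end of each of Scd2, Fth1, Wasf2 and Gm38246; blue bars are wild type and orange bars the Hen1 knockout, 1 library each. The peak at base 31 of Scd2 falls from 86.2% to 20.0% and that at base 32 of Fth1 from 36.1% to 0.495%, while base 29 of Gm38246 holds 83.3% and 86.4%.

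The same difference was seen across 5′ ends. In 6241 5′ ends from 1296 genes, each with at least 20 reads in both libraries, the median of the mean templated 3′ end, that is the last base that matches the transcript, went from 27.98 nt in wild type to 26.83 nt in the knockout. The median shift was -1.02 nt, and 10% of ends lay below -2.52 nt and 10% above -0.03 nt. The mean end was shorter in the knockout at 5650 ends (90.5%) and longer at 577. It was at least 1 nt shorter at 3172 ends, 50.8% of all tested. The commonest end itself was shorter at 3132, the same at 2818 and longer at 291.

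The MILI immunoprecipitate, which neither library of the comparison entered, gave an independent mark for where a piRNA normally ends. At 6199 5′ ends with at least 10 reads in it, the median share of reads stopping short of its commonest end was 18.5% for wild type and 59.0% for the knockout. The share at that end was 52.8% and 28.6%. More knockout than wild type reads stopped short at 5647 of these ends (91.1%). The shift was larger at 5′ ends whose piRNA is long: its median was -0.29 nt at the 293 ends where the immunoprecipitate ended at 25 nt or less, -0.81 nt at 27 nt, -1.17 nt at 29 nt, -1.78 nt at 31 nt and -2.31 nt at the 311 ends where it ended at 32 nt or more. Median knockout ends thus lay between 24.98 and 28.50 nt over these classes, against 25.26 to 31.24 nt in wild type.

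Over all gene-derived piRNA-like reads, those of 25 to 31 nt with a sense match to a transcript, the mean length was 28.05 nt for wild type and 27.09 nt for the knockout, and reads under 27 nt made up 17.3% and 38.9%. The 5′ features of piRNAs were close: the first base was T in 82.9% and 84.7%, and base 10 was A in 30.7% and 30.7%. microRNAs served as small RNAs of the same libraries made without Hen1. Across 110 microRNA arms with reads enough in both libraries the median shift of the 3′ end was 0.03 nt, the range was -0.45 to 0.44 nt, and 0 arms were 1 nt or more shorter. The shift of 0.44 nt was that of miR-3471, an entry whose reads are described further below.

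**Figure D2:**
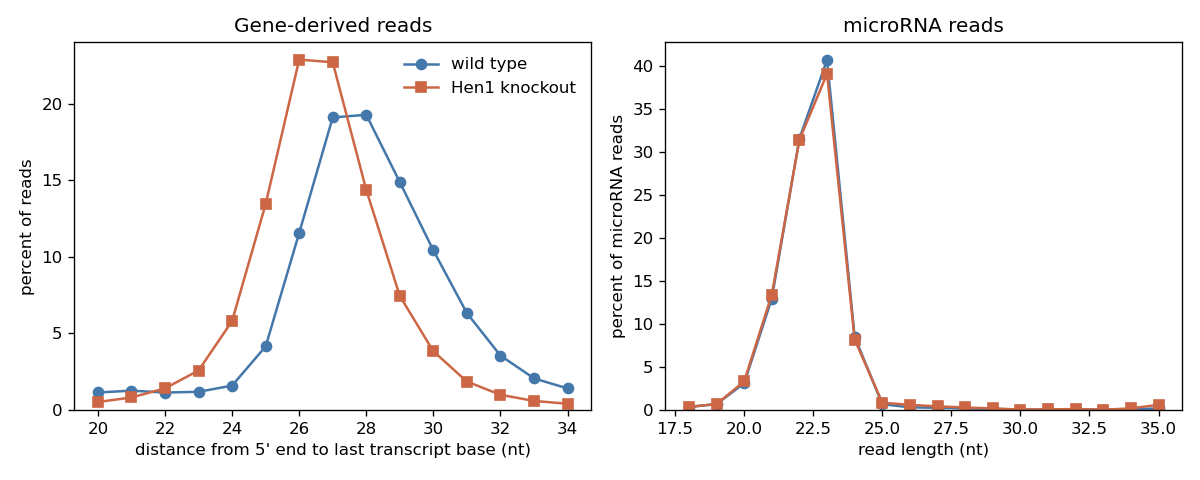
Left, share of gene-derived reads (percent) by the distance from the 5′ end to the last transcript base (nt); right, share of microRNA reads (percent) by read length (nt); blue circles are wild type and orange squares the Hen1 knockout, 1 library each. The gene-derived curve of the knockout lies to the left, with 22.9% of reads at 26 nt against 11.6% in wild type, while the mean end of microRNA arms was 22.4 nt in both libraries.

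Tails were more frequent in the knockout. Of gene-derived reads, 6.44% of 1667133 in wild type and 17.1% of 3864743 in the knockout ended in 1 to 3 bases that the transcript does not hold, a ratio of 2.66 (95% counting interval 2.64 to 2.67). A single T, which is a U in the RNA, was the commonest tail in both libraries, 3.396% and 7.64%, a ratio of 2.25 (2.23 to 2.27). A single A went from 0.955% to 3.74%, a ratio of 3.91 (3.85 to 3.98), so that A tails differed by more than T tails in ratio and by less in points. A single G was 0.0744% and 0.149%. A single C was 0.330% and 0.366%, a ratio of 1.11 (1.07 to 1.14).

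Tails of 2 bases made of A alone or of A and T had larger ratios than TT. AA went from 0.136% to 0.775% of reads, a ratio of 5.71 (5.48 to 5.96). AT had a ratio of 5.95 (5.65 to 6.27), TA of 5.39 (5.12 to 5.68) and TT of 2.62 (2.55 to 2.68). Tails of 2 or 3 bases that held a G or C had a ratio of 1.68 (1.65 to 1.72). A tail base that equals the next base of the transcript cannot be seen as a tail, and the single-base ratios were 2.07 for T and 3.92 for A where only reads with another next base were counted, an alternative chosen after the data were seen.

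The same measures were taken inside reads and on microRNAs. Single mismatches 5 to 7 bases from the 3′ end were found at 0.178% per position for wild type and 0.170% for the knockout. Tails on microRNAs were found on 8.42% and 8.83% of microRNA reads, a ratio of 1.05 (1.04 to 1.06), with 1.06 for a single T and 1.07 for a single A. They were higher in the knockout at 55 of 110 arms. In the Mili knockout, where gene-derived sense reads of 25 to 31 nt were 0.942% of the library against 24.4% for wild type and 31.03% for the Hen1 knockout, 5.38% of the remaining gene-derived reads had a tail, and in the MILI immunoprecipitate 4.75%.

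**Figure D3:**
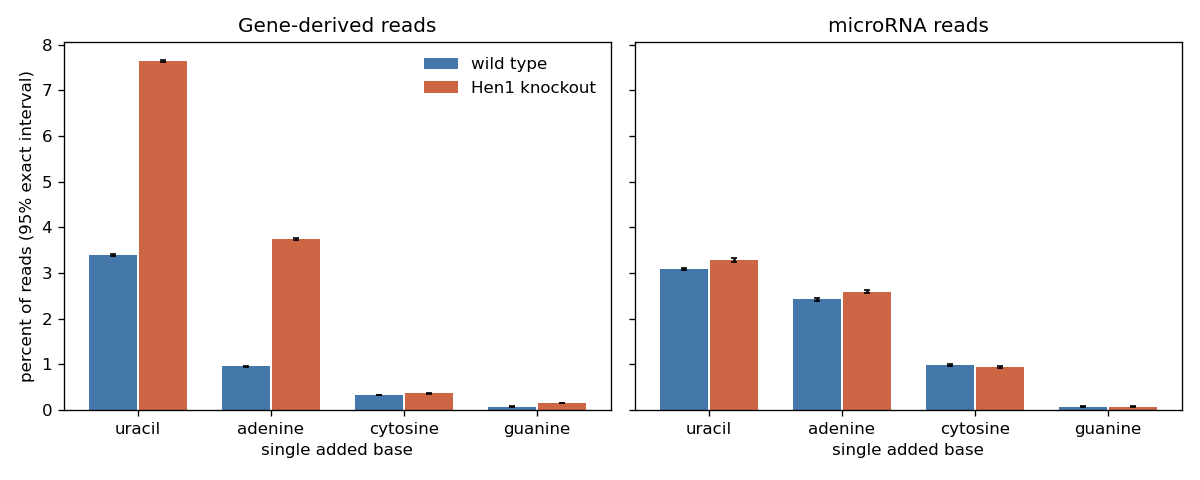
Share of reads that end in a single untemplated base (percent, vertical axis, bars from 0, error bars 95% exact intervals from read counts) by the base added (T is drawn as uracil), for gene-derived reads on the left and microRNA reads on the right; blue is wild type and orange the Hen1 knockout, 1 library each. Gene-derived reads with an added T go from 3.396% to 7.64% and with an added A from 0.955% to 3.74%, while on microRNAs T is 3.09% and 3.28% and A 2.42% and 2.59%.

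The base added differed with the length of the templated part. In the knockout a single A was most frequent on parts of 24 nt, 6.87%, and fell to 2.29% at 28 nt and 1.75% at 31 nt. A single T was at 5.76% on parts of 24 nt, 8.40% at 26 nt, 7.75% at 27 nt, 7.80% at 28 nt and 9.26% at 31 nt. In wild type, A was 2.19% at 24 nt and 0.570% at 31 nt, and T 2.53% and 4.26%. Tails also followed the last templated base: in the knockout 41.3% of parts that ended in G carried one, 22.6% of those in A, 11.6% of those in T and 8.54% of those in C. In wild type these shares were 20.2%, 8.14%, 3.78% and 3.72%. The transcript base next to an end sets which tails can be seen, and its part in these differences between ends was not tested.

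Tailing was spread over source genes. In 598 genes with at least 500 reads in each library the median tailed share was 5.64% for wild type and 16.7% for the knockout. It was higher in the knockout in 593 genes and at least 2-fold higher in 547. D10Wsu102e, the gene with most piRNA-like reads, had 6.88% (6.62 to 7.15) and 16.25% (16.01 to 16.5). Scd2 went from 4.33% to 18.5% and Gabpb2, which encodes a subunit of the GA-binding transcription factor, from 5.57% to 19.02%. The largest ratios among the named genes were at Cox6c, a subunit of cytochrome c oxidase, 2.53% (1.85 to 3.37) and 19.8% (17.8 to 21.8), and at Pfdn6, a prefoldin subunit, 3.65% and 22.9%. Gm49116, Rpl13, Cox6a1, Olfr839-ps1 and Gm45104 were the 5 genes where it was not higher. Gm45104 departed from the annotated sequence in 70.7% of wild type reads and 54.5% of knockout reads. Differences between these cells and the reference near a 3′ end, such as DBA2 alleles, count as tails in both libraries.

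The mean templated end was shorter in the knockout in 593 of the 598 genes too, with a median shift of -1.35 nt and a range of -2.85 to 0.62 nt. It moved from 28.56 to 26.57 nt for Scd2, from 28.29 to 27.17 nt for D10Wsu102e, from 28.03 to 26.45 nt for Fth1 and from 28.59 to 27.60 nt for Gm38246. The shift per gene also reflects which 5′ ends were read in each library, which the shift per 5′ end above does not.

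The genes that gave piRNA-like reads were largely shared. Of the 100 genes with most such reads, 78 were the same in both libraries, and these 100 held 25.2% of 1-gene reads for wild type and 29.9% for the knockout. Of single 5′ ends, 37 of the top 100, 489 of the top 1000 and 2549 of the top 5000 were shared. All of the top 1000 ends of each library had reads in the other, so these ends differed in rank. D10Wsu102e gave 4095 RPM (reads scaled to 1000000 reads of 18 to 35 nt) for wild type and 6051 for the knockout, a ratio of 1.48 (1.46 to 1.498). Gm38246 gave 1982 and 3790, a ratio of 1.91 (1.88 to 1.95), and Gm30948, also a lincRNA, 1229 and 2987, a ratio of 2.43 (2.38 to 2.49). The kinase gene Abl2 had a ratio of 1.82, Fth1 1.65, the ubiquitin ligase gene Cbl 1.92, Gabpb2 1.59 and Tmem245 1.15. Scd2 gave 1265 and 1205, a ratio of 0.952 (0.928 to 0.978), although its most read 5′ end fell to a ratio of 0.258.

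Across the 3297 genes that reached 200 piRNA-like reads in the pair of libraries, the median ratio of RPM was 1.22, and 10% of genes lay below 0.738 and 10% above 1.93. At least 2-fold higher in the knockout were 279 genes, 8.46% of those tested, and at least 2-fold lower were 49, 1.49%. The whole gene-derived class was higher, so ratios were also taken per 1-gene piRNA-like read: the median was then 0.944, with 76 genes higher (2.31%) and 210 lower (6.37%). These counts rest on exact matches of 25 to 31 nt, which leave out tailed and shorter reads. With both added, which was chosen after the data were seen, 514 genes were higher and 43 lower.

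Among genes with at least 500 reads, the highest ratios were those of Gm11331, an unprocessed pseudogene, with 31 and 486 reads and a ratio of 9.66 (6.74 to 13.9), Gm26730 with 6.47 (4.87 to 8.58), Gm45104 with 5.33 (4.34 to 6.54) and Tmc3, a transmembrane channel-like gene, with 5.09 (3.87 to 6.69). Gm42923, from 127 to 577 RPM, and Tmco3 each had a ratio of 4.52. The lowest were those of Bpnt1, a nucleotidase gene, at 0.253 (0.213 to 0.299), Gm6641 at 0.336, Pfdn6 at 0.359, Odc1, which encodes ornithine decarboxylase, at 0.363, the histone gene Hist1h2bg at 0.364 and Cox6c at 0.372. Pseudogenes such as Gm11331 and Gm6641 and histone genes have near-identical copies, so reads with a few differences can be split between them. The ratio of Gm45104 rests on exact matches. In the tail count above, 70.7% of its wild type and 54.5% of its knockout reads departed from the annotated sequence. Such reads are left out of the ratio, a larger part for wild type, and the effect of this was not tested. By gene type, the median ratio was 1.51 over 50 lincRNAs, of which 14 were higher and 1 lower, and 1.22 over 3163 protein-coding genes, of which 247 were higher and 43 lower. Of all genes tested 8.46% were higher and 1.49% lower.

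**Figure D4:**
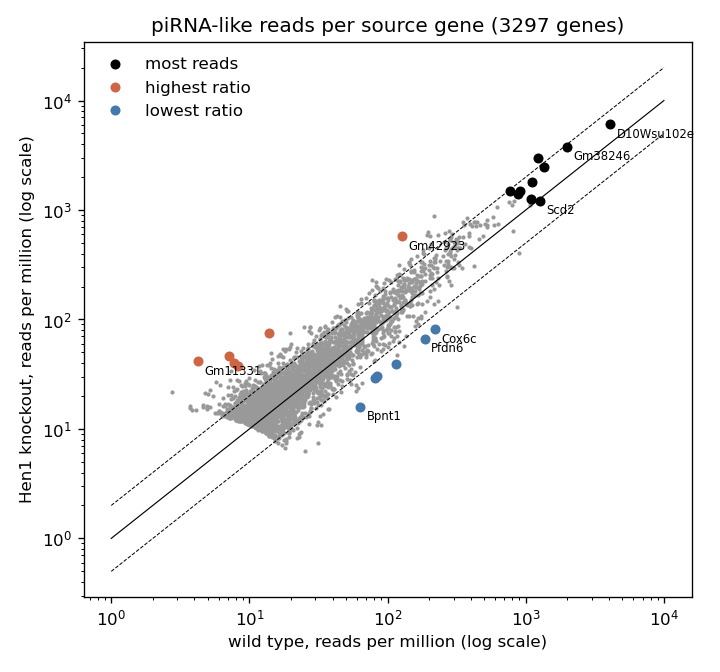
piRNA-like reads of each of 3297 source genes, in RPM, wild type (horizontal, log scale) against Hen1 knockout (vertical, log scale), 1 library each; the solid line marks equal values, the dashed lines 2-fold differences, black points the 10 genes with most reads, orange and blue points the 6 highest and 6 lowest ratios. Most genes lie between the dashed lines, with 279 above and 49 below.

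Lists of genes were read as sources of piRNA-like reads, which is not the level of their mRNA. Of 32 piRNA pathway genes 8 had enough reads, 0 were 2-fold higher or lower, against 8.46% and 1.49% of all genes tested, and the median ratio was 1.01. Piwil2, which encodes MILI, had 236 and 600 reads and a ratio of 1.59, the piRNA transcription cofactor Btbd18 1.68, the nuage protein gene Mael 1.502 and Tex15 1.20. The other 4 lay below 1, with Gpat2 at 0.830, Wdr77 at 0.805, Exd1 at 0.763 and the helicase gene Mov10l1 at 0.667. Of 33 genes known for spermatogonial stem cells 14 had enough reads, with a median of 1.19. Of these 1 was 2-fold higher, where 8.46% of all genes were, and 0 lower. Pax7 was 2-fold higher at 2.17 (1.80 to 2.61), the GDNF receptor gene Gfra1 was at 1.99, Zbtb16 at 1.87, Foxo1 at 1.61, Lin28a at 1.43, Foxc2 at 1.06, Lin28b at 1.01, Sall4 at 0.933, and Sohlh1 and Uchl1 at 0.859. Of 18 genes of differentiating and meiotic germ cells Sycp1 and Dnmt3a had enough reads, at 1.45 and 1.06, and of 19 fibroblast genes Pdgfra and Fn1, at 1.63 and 0.688. Among genes for enzymes that act on 3′ ends, Cnot6, a deadenylase, was at 1.62, the terminal nucleotidyltransferase genes Tent4a and Tent4b at 1.25 and 1.10, and Pan3 at 1.18.

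Genes for histones and ribosomal proteins had lower medians than the 1.22 of all genes. Of 23 histone genes 5 were 2-fold lower, where 1.49% of all genes were, and 1 higher, where 8.46% were, with a median of 0.802. Hist1h2bg was lowest at 0.364, Hist1h4j was at 0.373, the linker histone genes Hist1h1d and Hist1h1a at 0.631 and 0.745, and Hist1h2af was highest at 2.32. Of 43 genes with a ribosomal protein symbol, a list that also takes in the kinase gene Rps6kc1, 3 were 2-fold lower and 0 higher, beside the same 1.49% and 8.46% of all genes, with a median of 0.966. Rpl7a was at 0.239 (0.186 to 0.305) and Rpl13 at 0.401 (0.360 to 0.446). Rpl39 was highest at 1.958.

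Within protein-coding genes most piRNA-like reads lay in 3′ UTRs, 68.3% for wild type and 72.6% for the knockout. The share in coding sequence was 27.2% and 23.3%, and in 5′ UTRs 2.75% and 2.40%. Reads antisense to 1 gene made up 9.74% and 11.3% of 1-gene reads in either direction. Sense and antisense 5′ ends overlapped by 10 nt, the distance that ping-pong cleavage by Piwi proteins leaves, more often than by other lengths, with a z-score of 11.9 for wild type and 13.5 for the knockout. With each distinct sequence counted once the order turned, at 10.5 and 8.07. Overlaps of 10 nt were 12.6% of those counted for wild type and 12.1% for the knockout by reads. Tails were found on 12.1% of antisense reads for wild type and 20.8% for the knockout.

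Small RNA classes differed in their share of the library. piRNA-like reads of every source were 38.5% for wild type and 55.0% for the knockout. Sense reads from protein-coding genes had a ratio of 1.24, of long non-coding RNAs 1.64, of pseudogenes 1.48, and those only antisense to a transcript 1.62. Those that match 20 or more genes were at 1.01. Reads without a transcript match, 13.3% and 22.7% of the libraries, included reads that match a transcript except for the last 1 to 3 bases: these were 13.3% (13.2 to 13.3) of such reads in wild type and 30.1% (30.02 to 30.13) in the knockout. Without them the share was 11.6% and 15.9%. In the Mili knockout, piRNA-like reads without a transcript match were 7.47% of the library, against 0.942% for those with a sense match. How many of the reads without a match are piRNAs was not tested.

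microRNA reads took 19.2% of all wild type reads and 7.34% of knockout reads, 2.61-fold lower (2.61 to 2.62). Fragments of snRNAs and snoRNAs were 2.11-fold lower, of mitochondrial RNAs 2.09-fold lower and of rRNAs 1.62-fold lower. Since shares sum to the whole, a higher piRNA-like share and lower shares of these classes cannot be told apart here, nor can fewer cells of a type and less RNA per cell. Of 260 structural RNA entries 123 were at least 2-fold lower (47.3%) and 7 higher (2.69%). The mitochondrial rRNAs mt-Rnr2 and mt-Rnr1 were 2.11- and 2.34-fold lower and mt-Co1 2.38-fold lower. The snoRNA entries Gm23927 and Gm22192 were 5.28- and 3.401-fold lower and the U3 gene Rnu3a 2.22-fold lower. The Y RNA Rny1, which binds the Ro protein, was at a ratio of 0.901, the entry Gm22662 at 0.337, 2.96-fold lower, and Rny3 at 0.606. Of the 6 rRNA entries 0 were 2-fold lower and 1 was higher, with a median ratio of 1.00, although the summed class was lower. Gm22109 was 1.82-fold lower and Gm42418 1.48-fold lower, while Gm26917 was at 1.63.

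Reads that begin with the A box of tRNA genes at its usual place and match no transcript in the sense went from 5.61% to 8.40%, a ratio of 1.496 (1.491 to 1.501). They were taken as likely tRNA 5′ fragments, since few nuclear tRNAs were in the reference, and 0.264% and 0.288% of transcript-matched reads met the same motif rule. Shares in the knockout were smaller at 18 to 25 nt, 28 to 30 nt and 34 to 35 nt. At 26 to 27 nt and 31 to 33 nt they were larger. Of A-box reads 28.2% were 32 nt in the knockout and 17.6% in wild type, and 8.19% and 16.6% were 28 nt. At 27 nt the shares were 5.62% and 4.37%, at 31 nt 15.5% and 15.3%, and at 34 nt 3.07% and 3.82%. The pair below comes from different tRNA-like sequences, and shows a 30-nt form with a ratio of 2.37 (2.29 to 2.45) and a 28-nt form with a ratio of 0.517 (0.507 to 0.527). A 28-nt form with the same 5′ end as the first was at 0.458 (0.446 to 0.470). A 33-nt form with the same 5′ end as the second was at 3.06 (2.97 to 3.15).

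A-box fragment, higher: ggctttggtctaggggtatgattctcgctt
A-box fragment, lower: tcccacatggtctagcggttaggattcc

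Of the tRNA genes with a sequence, n-TVcac was at 1.13, n-TGccc at 1.03 and n-TAagc at 0.381. All 3 were measured at 952 reads or more in wild type.

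Within the microRNA class, ratios were taken per microRNA read, which sets aside the lower share of the class. The germ line X cluster, a group of X-linked microRNAs of the testis, made up 58.8% of microRNA reads for wild type and 56.9% for the knockout. Of its 26 arms 0 were 2-fold higher or lower, against 17.4% and 1.63% of all arms tested, and the median ratio was 1.02. miR-741-3p, the most read microRNA, was at 0.974 (0.967 to 0.9801), miR-871-3p at 0.903, miR-470-5p at 0.930, miR-880-3p at 0.753 and miR-465a-3p at 1.31. These germ cell markers thus held more of the microRNA reads than any other list in both libraries. Per read of 18 to 35 nt the same arms were lower, miR-741-3p from 31872 to 11459 RPM.

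Over the 184 microRNA arms that reached 200 reads in the pair of libraries, 32 were at least 2-fold higher (17.4%) and 3 lower (1.63%), with a median of 1.16. Per read of 18 to 35 nt, 1 was higher and 113 were lower. let-7 microRNAs, which are known for their rise as cells leave a stem state, were among the higher ones per microRNA read: 7 of 9 arms were 2-fold higher, where 17.4% of all arms were, with a median of 2.30 and a range of 1.94 to 2.88. All of these arms but let-7d-3p, the lowest at 1.94, share the seed, bases 2 to 8, in capitals below, with sequences from RefSeq.

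let-7a-5p: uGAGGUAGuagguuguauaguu
let-7f-5p: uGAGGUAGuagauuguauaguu
let-7i-5p: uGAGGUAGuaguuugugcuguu
miR-221-3p: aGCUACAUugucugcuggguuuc
miR-222-3p: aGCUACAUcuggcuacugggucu
miR-10a-5p: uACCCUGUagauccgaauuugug

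let-7a-5p went from 1718 to 4266 reads in 1000000 microRNA reads, a ratio of 2.48 (2.35 to 2.62), let-7f-5p from 1996 to 4020 and let-7i-5p from 1207 to 3257. Per read of 18 to 35 nt, let-7a-5p was at 0.917, let-7f-5p at 0.744 and let-7i-5p at 0.997. miR-221-3p and miR-222-3p, which share a seed, had ratios of 3.18 (2.91 to 3.48) and 2.87 (2.63 to 3.13). miR-146a-5p was at 2.85, miR-21a-5p at 2.31 and miR-3471 highest among the more abundant at 4.07 (3.66 to 4.53). miR-3471 had 7 reads in the Mili knockout and 952 in the MILI immunoprecipitate. In wild type it had 474 reads untreated and 888 with NaIO4, and in the Hen1 knockout 1140 and 124. Tails were found on 12.2% of its wild type and 29.5% of its knockout reads. Whether this entry is a microRNA was not tested.

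Some microRNAs known from fibroblasts were also higher within the class. miR-199a-5p went from 3324 to 9601 reads in 1000000 microRNA reads, a ratio of 2.89 (2.78 to 3.0004), miR-199a-3p was at 2.63 and miR-214-3p at 3.79. In all, 3 of 9 fibroblast arms were 2-fold higher, where 17.4% of all arms were, while miR-27b-3p was at 1.01, and their summed share was 1.63% for wild type and 2.86% for the knockout. Per read of 18 to 35 nt the list went from 2818 to 1830 RPM, with miR-199a-5p at a ratio of 1.07 and miR-199a-3p at 0.970. Within the class the fibroblast share moved with let-7, miR-221 and miR-21a, and its part in their values was not tested. Markers of blood summed to 0.0473% and 0.0543%, of endothelium to 0.0329% and 0.0218% and of muscle to 0.0019% and 0.0040%.

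The lower arms included miR-10a-5p, from 22706 to 10073 reads in 1000000 microRNA reads, 2.25-fold lower (2.20 to 2.31). miR-10b-5p, with the same seed, was at 2.41 (2.33 to 2.50). The miR-183 cluster, which is transcribed as 1 unit, was lower at each named arm but by less: miR-183-5p was at 0.635, miR-96-5p at 0.594, miR-182-5p at 0.784 and the less read miR-182-3p at 0.540. miR-26b-5p was at 0.563, while miR-26a-5p, with the same seed, was at 1.01 (0.993 to 1.02). Some of these differences were also seen between wild type and the untreated Mili knockout, which held 1403728 and 1633863 microRNA reads. Reads of miR-10a-5p numbered 28830 and 15572, of miR-10b-5p 4836 and 8956 and of let-7a-5p 2181 and 4134, while those of miR-26b-5p numbered 5388 and 5404. The miR-17 and miR-106b clusters, common in dividing cells, had a median of 0.958 over 13 arms, and miR-92a-3p was at 0.958. Of these arms 1 was 2-fold lower, where 1.63% of all arms were, and 0 higher, where 17.4% were. Of the miR-290 and miR-302 clusters of pluripotent cells 5 arms had enough reads, all from the miR-290 cluster. Their median was 1.68 and their range 1.31 to 2.23. Of these 1 was 2-fold higher, miR-294-3p at 2.23, where 17.4% of all arms were. miR-292a-5p, of the same cluster but not in the list, was at 1.97.

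**Figure D5:**
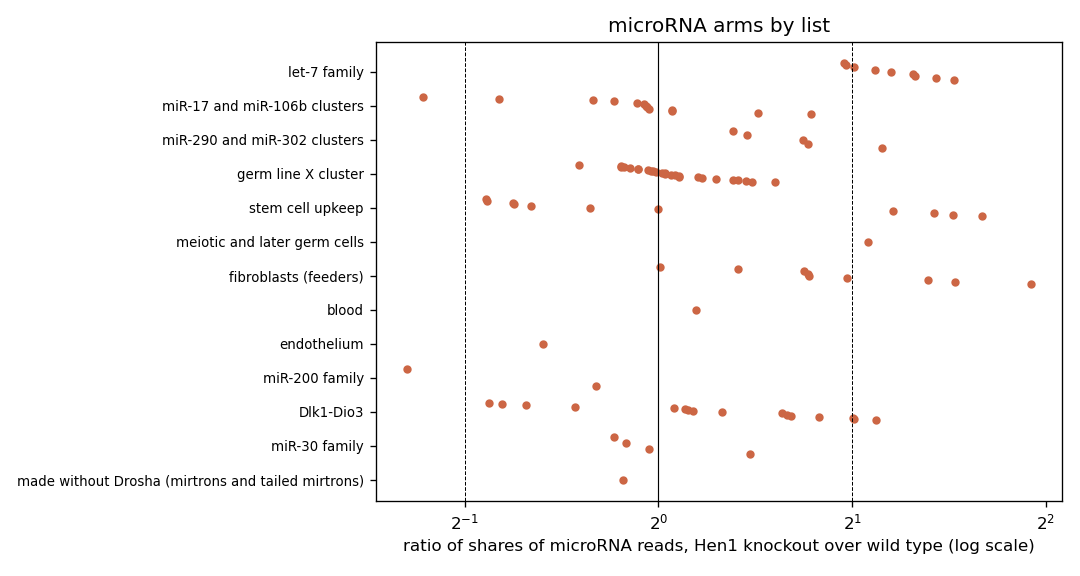
Ratio of the share of microRNA reads, Hen1 knockout over wild type (horizontal, log scale), for arms that reached 200 reads in the pair of libraries; each point is 1 arm, each row a list, the solid line marks 1 and the dashed lines 2-fold. The let-7 arms lie between 1.94 and 2.88 and the germ line X cluster between 0.753 and 1.52.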

How the data were processed

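The authors deposited, for each library, counts of reads per distinct sequence, with no header and no scaling. Per the submitters' processing notes, Bowtie was a tool and mm10 the build, and for adapter trimming no tool is given in the sources used here. For the present work, sequences of 18 to 35 nt were matched to GENCODE M21 transcripts (GRCm38) and to annotated small RNAs by their first 18 bases and base-by-base extension, with Python 3.11.15, numpy 2.4.6, numba 0.67.0, pandas 2.3.3 and scipy 1.17.1. No genome was used, and nuclear tRNAs of 10 of 54 families were in the reference. piRNA-like means 25 to 31 nt with no small RNA class. Ends and tails (up to 3 bases) were read where the first 20 nt lie in 1 gene in the sense. The matching and the 2-fold rule were tested on simulated data. Where a ratio needed it, 0.5 was added to each count.

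Named source genes are the 10 with most reads and, with at least 500 reads, the 6 highest and 6 lowest ratios. Named microRNAs are the 10 with most reads and, with at least 1000, the 5 highest and 5 lowest. Structural RNAs are the 3 with most reads per class, and list members needed 200 reads. Some genes that these rules take in are not reported here. Members, rules and lists were chosen with earlier results of these data known. Intervals for shares are exact (Clopper-Pearson) and those for ratios Poisson on the log scale. At these depths a class share has an interval of under 0.1 points. Figures were made with matplotlib 3.10.9.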

Additional observations from a re-analysis of the deposited data

How the results depend on the processing

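No paired analysis was possible because each group has 1 library, and for the same reason no replicate could be left out. Ratios are knockout over wild type. Per microRNA read, the ratio of gene-derived piRNA-like reads was 3.32 in place of 1.27, that of snRNA and snoRNA fragments was 1.24, of mitochondrial fragments 1.25 and of rRNA fragments 1.61, so these 3 changed direction. With each distinct sequence counted once, gene-derived piRNA-like reads fell to 0.905, which is a change of direction, and microRNAs were at 0.463, snRNA and snoRNA fragments at 0.395, mitochondrial fragments at 0.412 and rRNA fragments at 0.468. With the 10 top sequences of either library removed, these 5 ratios were 1.23, 0.401, 0.457, 0.461 and 0.595.

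The number of genes tested changes with the read threshold, so counts at other thresholds are not shares of the same genes. Source genes 2-fold higher and lower numbered 279 and 49 of 3297 tested. They numbered 2911 and 0 per microRNA read, 8 and 17 with distinct sequences, 76 and 210 per 1-gene read, 903 and 316 with at least 50 reads, 87 and 7 with at least 1000 reads, 934 and 234 by a 1.5-fold rule, 16 and 2 by a 4-fold rule, and 514 higher with tailed reads and 20 to 35 nt added. The median ratio of 1.22 was 3.20, 0.951, 0.944, 1.16 and 1.36 under the first 5 of these and 1.34 under the last, and 1.18 without those top sequences, so it changed direction with distinct sequences and per 1-gene read.

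The difference in mean length was -0.98 nt with reads of 1 gene, -0.97 nt with MILI-bound 5′ ends and -1.09 nt with 18 to 35 nt. The median 3′ end shift was -0.98 nt with at least 50 reads and -1.08 nt as a mean weighted by reads. The tail ratio of 2.66 was 2.50 with 1-base tails, 2.72 where the first 20 nt lie in no other gene, 2.47 with distinct sequences, 2.85 at MILI-bound 5′ ends, 2.07 for visible T tails and 3.92 for visible A tails. The last 3, the added reads above and the wider length window were chosen after seeing the data.

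Of 184 microRNA arms 32 were 2-fold higher and 3 lower, and of the 108 with at least 1000 reads, 18 and 1. With at least 50 reads, which takes in more arms, 48 were higher and 13 lower. Per read of 18 to 35 nt, 1 of the 184 was higher and 113 were lower. The ratio of antisense shares, 1.16, was 0.991 with distinct sequences, a change of direction, that of the z-scores for 10 nt overlaps, 1.14, was 0.770, also a change of direction, and that of 3′ UTR shares, 1.06, was 1.03. No other alternative moved a result recomputed here by more than its own interval or, for counts, by over 1.5 times. The cause of these changes was not tested. Spike-ins were not used, so no absolute amounts were derived.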
